A study of Rattus norvegicus with 10 samples.

Results

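The genes described here encode the machinery of mitosis, from the centromere and the spindle to the final separation of the daughter cells. 35 genes were listed by name, and a gene was measured where a probe set of the array carried that name as its only annotated gene symbol. 33 of the 35 genes were measured, among 14217 genes in all, by 44 probe sets. Ndc80 and Tpx2 had no probe set under those names and are not described further. Where several probe sets named a gene, the brightest over all arrays stood for it.

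The samples came from male F344/N rats, 5 to 6 weeks old when the study began. 5 rats received N,N-dimethyl-p-toluidine (DMPT), an aromatic amine used to speed the setting of acrylic resins, at 120 mg/kg per day by gavage in corn oil for 5 consecutive days. Another 5 rats received the corn oil vehicle alone, at 0 mg/kg per day. The transitional epithelium of the nasal cavity was cut out by laser capture, and 4 ng of its RNA was amplified and hybridised to a whole-genome rat array, 1 array per rat. Every RNA had an integrity number above 5. The study asked which transcripts differed in this epithelium after the short exposure. The captured tissue is a mixture of cell types, so that a change in the number of dividing cells and a change in RNA per cell cannot be told apart.

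In a dividing cell, the cyclin B-dependent kinase Cdk1 starts mitosis, kinetochores built on centromeric chromatin attach the chromosomes to the spindle, and a checkpoint holds back the anaphase-promoting complex until every chromosome is attached. The anaphase-promoting complex, a ubiquitin ligase, then has cyclin B and securin destroyed, and the central spindle directs cytokinesis. Most transcripts of these proteins are made in the G2 phase and in mitosis, from promoters on which the MuvB complex acts with B-Myb and FoxM1 through CHR elements and with NF-Y at CCAAT boxes. A resting surface epithelium such as that of the nose holds few cells in mitosis, and their number rises during repair.

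The promoters were searched for these elements, and those of Cenpa, Prc1, Plk1 and Ccnb2 are shown because each holds both a CCAAT box and a CHR. The first 3 have the smallest p-values for DMPT against vehicle among such genes, and Ccnb2 was added after the matches were seen, for its series of evenly spaced CCAAT boxes. Each window runs from 250 bases before to 50 bases after the annotated start of the gene in RefSeq's GRCr8 rat assembly, 5′ to 3′ on the gene's strand. Capitals mark a CCAAT box (CCAAT, or ATTGG on the other strand) or a CHR (TTTGAA or TTCGAA on either strand). The Cenpa window is chr6:31431503-31431802 on the minus strand, the Prc1 window chr1:143659231-143659530 on the plus strand, the Plk1 window chr1:186147408-186147707 on the plus strand and the Ccnb2 window chr8:79981609-79981908 on the minus strand.
Cenpa: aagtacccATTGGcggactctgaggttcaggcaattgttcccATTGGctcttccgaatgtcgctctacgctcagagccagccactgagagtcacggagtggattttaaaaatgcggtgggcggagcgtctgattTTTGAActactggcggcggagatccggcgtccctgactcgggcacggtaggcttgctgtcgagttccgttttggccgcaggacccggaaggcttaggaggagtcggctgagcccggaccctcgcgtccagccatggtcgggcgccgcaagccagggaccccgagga
Prc1: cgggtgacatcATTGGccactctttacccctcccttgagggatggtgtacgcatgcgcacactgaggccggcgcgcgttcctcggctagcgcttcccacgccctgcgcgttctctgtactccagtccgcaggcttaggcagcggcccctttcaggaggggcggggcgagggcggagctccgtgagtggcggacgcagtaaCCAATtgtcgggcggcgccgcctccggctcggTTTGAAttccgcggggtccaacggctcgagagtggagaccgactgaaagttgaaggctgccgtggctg
Plk1: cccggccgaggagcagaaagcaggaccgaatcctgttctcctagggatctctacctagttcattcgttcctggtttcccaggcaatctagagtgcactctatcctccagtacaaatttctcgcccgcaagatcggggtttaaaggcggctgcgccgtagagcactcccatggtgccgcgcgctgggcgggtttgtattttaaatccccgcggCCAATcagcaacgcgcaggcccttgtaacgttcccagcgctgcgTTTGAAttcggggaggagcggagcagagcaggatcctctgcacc
Ccnb2: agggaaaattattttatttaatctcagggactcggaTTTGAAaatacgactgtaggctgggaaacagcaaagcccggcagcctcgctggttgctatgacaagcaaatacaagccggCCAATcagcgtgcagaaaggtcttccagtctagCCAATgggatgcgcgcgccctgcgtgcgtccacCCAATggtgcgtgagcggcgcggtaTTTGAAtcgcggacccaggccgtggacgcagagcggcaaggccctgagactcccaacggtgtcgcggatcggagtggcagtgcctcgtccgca

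In the Ccnb2 window, CCAAT boxes begin at positions -134, -101 and -68 from the start site, each 33 bases from the next, and CHR elements begin at -214 and -43. The Plk1 window has 1 CCAAT box at -38 and 1 CHR at 7, past the start site. Prc1 has its CHR at -18 with CCAAT boxes at -239 and -50, and Cenpa has its CHR at -116 with CCAAT boxes at -242 and -208.

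Across the 33 measured mitosis genes, 31 rose after DMPT and none fell, with a median difference of 1.12 on the log2 scale, a 2.18-fold higher level. A gene was called when its adjusted p lay below 0.05, with Benjamini-Hochberg adjustment in limma over all 31042 probe sets. By that rule 93.9% of the mitosis genes rose, while 7.13% of all genes were called higher, 6.77% were called lower and the median of all genes was -0.00524. Values here are log2 array values, and a difference is DMPT minus vehicle on that scale with its SE. Levels are not compared between genes, apart from the brightness given for Aurkb, Mki67 and the cell type markers and the summed levels of marker lists. Brightness is not read here as a measure of cell number. Aurkb was lower at an unadjusted p under 0.05, the only measured mitosis gene with a difference below 0. In all, 32 of the 33 differences were above 0, against 49.1% of all genes.

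The called differences ran from 0.53 for Aurka to 1.69 for Cenpa. 23 genes were called and at least 2-fold higher (69.7%), a change that 1.91% of all genes met. 31 of the 33 were among the 1000 genes, out of 14217, with the highest differences when ranked with their sign. In 26 genes every DMPT array lay above every vehicle array (78.8%, against 7.58% of all genes). The 7 exceptions were Bub1b, Cdc20, Cdkn3, Melk, Pbk, Racgap1 and Aurkb. Without vehicle array 2 the groups were separate in 32 genes, Aurkb being the exception, and in 11.2% of all genes.

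**Figure D1:**
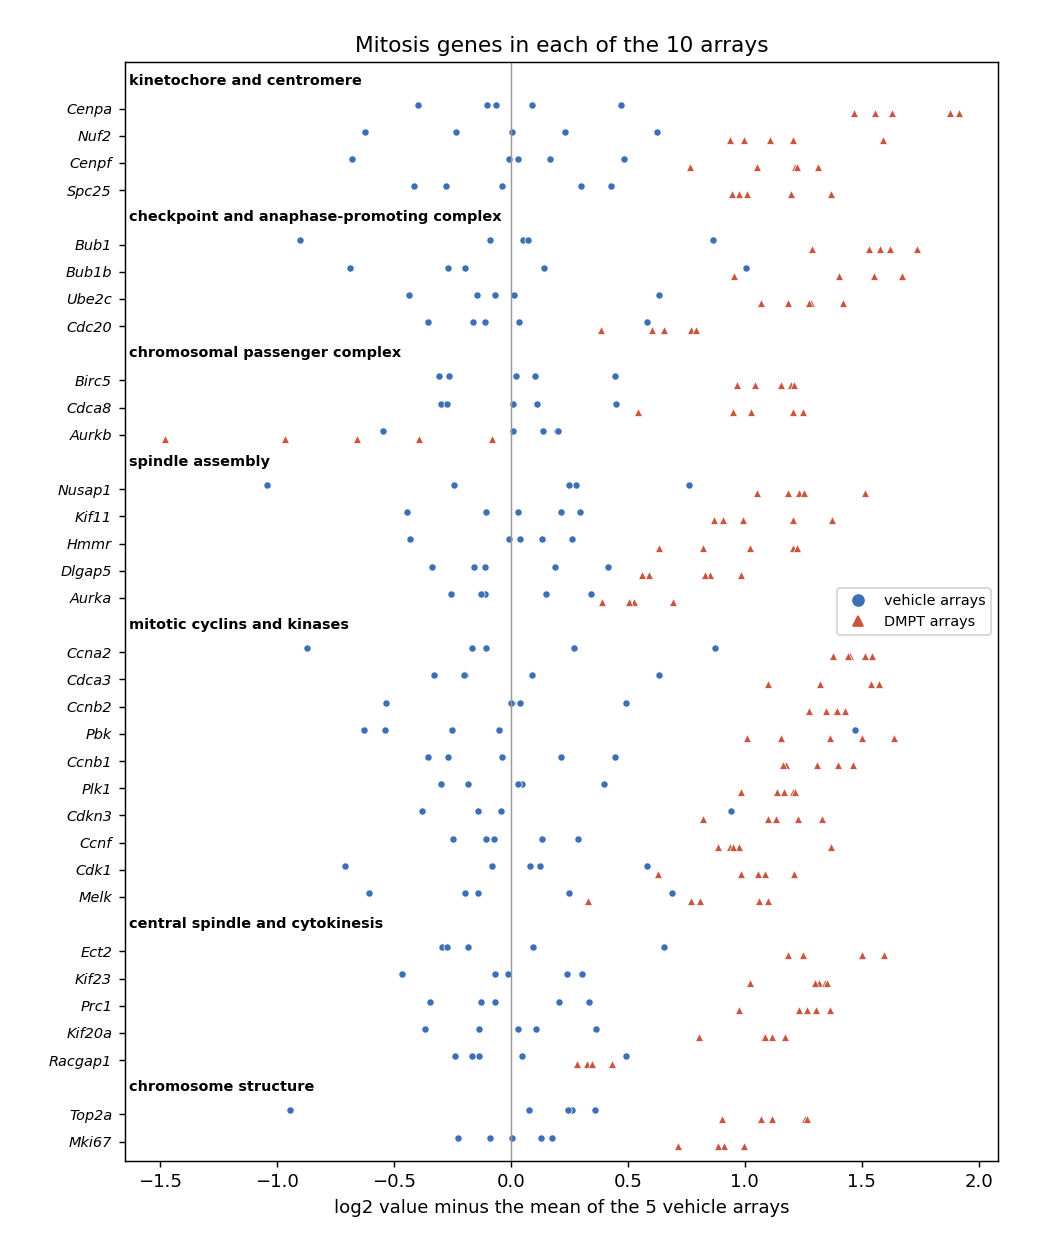
Each point is 1 array, placed by its log2 value minus the mean of the 5 vehicle arrays for that gene, with the 33 measured mitosis genes ordered by role; circles are vehicle arrays and triangles DMPT arrays. The triangles lie right of all circles in 26 genes, while in Aurkb they lie at or below 0.

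The vehicle arrays differed among themselves more than the DMPT arrays did. Averaged over the 33 genes and set against the vehicle mean, vehicle arrays 1 to 5 stood at 0.09, 0.46, -0.10, -0.39 and -0.06 log2 units, and DMPT arrays 1 to 5 at 1.11, 1.07, 1.08, 1.18 and 0.89. Vehicle 2 was the highest vehicle array for 26 genes and vehicle 4 the lowest for 21, while DMPT 5 was the lowest DMPT array for 23. The SD over vehicle arrays was the larger one in 32 of the 33 genes (97.0%, against 70.5% of all genes), with a median SD of 0.355 in vehicle and 0.179 in DMPT arrays. Leaving out vehicle 2 brought the median vehicle SD of these genes to 0.256, and the vehicle SD was then the larger one in 24 genes and in 51.4% of all genes. Without vehicle 2, 32 mitosis genes were called higher and the median difference was 1.24. Over all probe sets limma gave vehicle 2 the lowest array weight, 0.205, against 0.81 to 1.66 for the other arrays. A lower weight marks an array that departs more from its group.

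**Figure D2:**
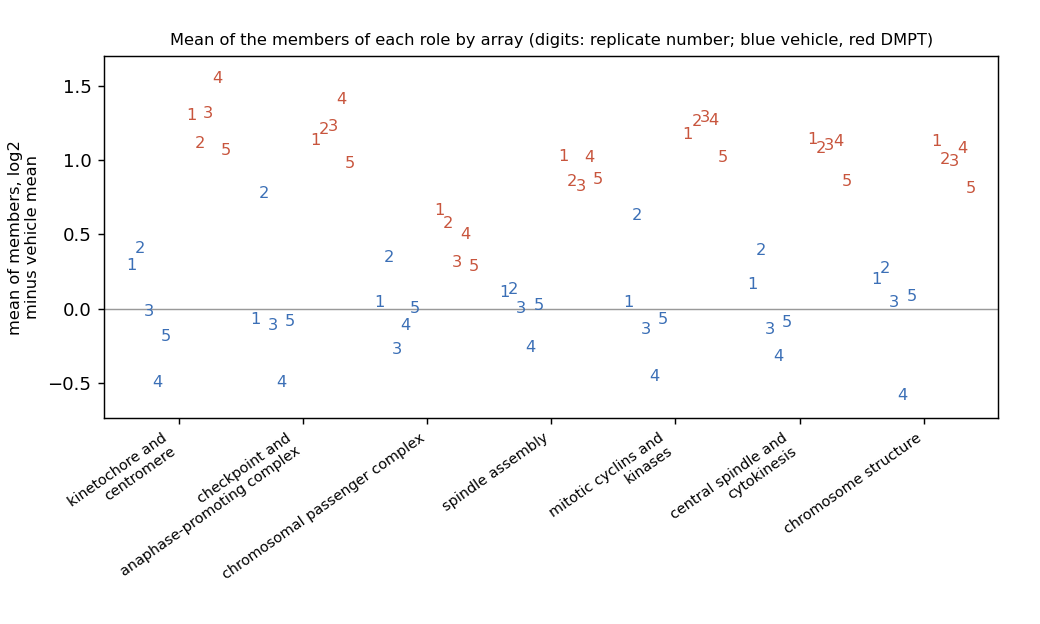
Each digit is the replicate number of 1 array, placed by the mean over the measured genes of a role of the log2 value minus the vehicle mean; blue digits are vehicle arrays and red digits DMPT arrays. In each of the 7 roles except the chromosomal passenger complex, which includes Aurkb, all red digits lie above all blue ones.

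All 4 measured genes of the kinetochore and centromere rose, with a median difference of 1.14. Cenpa, the histone H3 variant that marks the centromere, read 8.80, 8.42, 8.27, 7.93 and 8.23 log2 units in vehicle arrays 1 to 5 and 10.21, 9.80, 9.96, 10.25 and 9.89 in DMPT arrays 1 to 5. Every DMPT array lay above every vehicle array, and the difference of 1.69 ± 0.155 (SE; limma adjusted p = 6.76e-05) was the largest of the mitosis genes. Spc25, a subunit of the Ndc80 complex that binds microtubules at the kinetochore, read 9.15, 9.28, 8.82, 8.57 and 8.44 in the vehicle arrays and 9.86, 9.83, 10.05, 10.22 and 9.80 in the DMPT arrays. The groups were separate, with a difference of 1.10 ± 0.165 (limma adjusted p = 0.00162). Nuf2, its partner in the same complex, ran from 8.14 to 9.39 in vehicle and from 9.70 to 10.35 in DMPT arrays. Cenpf, which binds kinetochores and the nuclear envelope late in the cell cycle, ran from 8.87 to 10.03 and from 10.32 to 10.86. Neither overlapped, and their differences were 1.17 ± 0.211 for Nuf2 and 1.11 ± 0.190 for Cenpf.

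The 4 genes of the spindle checkpoint and of the anaphase-promoting complex also rose, with a median difference of 1.28. Bub1, a checkpoint kinase of the kinetochore, read 7.97, 8.78, 7.83, 7.02 and 7.99 in the vehicle arrays and 9.54, 9.50, 9.45, 9.65 and 9.21 in the DMPT arrays. Its vehicle values spread widely around vehicle 2 at the top and vehicle 4 at the bottom, yet all lay below the DMPT values, and the difference was 1.55 ± 0.250 (limma adjusted p = 0.00246). Cdc20, the activator of the anaphase-promoting complex, read 9.37, 10.30, 9.61, 9.76 and 9.56 in the vehicle arrays and 10.38, 10.33, 10.49, 10.51 and 10.11 in the DMPT arrays. Vehicle 2 lay above DMPT 5, and the difference of 0.64 ± 0.160 (limma adjusted p = 0.0251) was the smallest of this role. Bub1b, which encodes the checkpoint protein BubR1, ran from 7.31 to 9.01 in vehicle and from 8.95 to 9.67 in DMPT arrays, a difference of 1.31 ± 0.275. Ube2c, the ubiquitin-conjugating enzyme that works with the complex, ran from 9.49 to 10.55 and from 10.99 to 11.34, a difference of 1.25 ± 0.168.

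Cdc20 was among the less certain calls. It was no longer called when vehicle 1, vehicle 3, vehicle 5, DMPT 3 or DMPT 4 was left out, with differences of 0.55, 0.62, 0.60, 0.61 and 0.60 and limma adjusted p-values from 0.0516 to 0.0656. Of its 5 probe sets, 4 were called higher and the fifth, at 0.21 ± 0.110, was not called.

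Within the chromosomal passenger complex, which corrects faulty attachments and later moves to the central spindle, 2 of 3 genes rose and Aurkb did not pass the test. Birc5, which encodes survivin, read 7.95, 8.29, 7.87, 7.58 and 7.54 in the vehicle arrays and 8.89, 9.00, 9.04, 9.05 and 8.81 in the DMPT arrays. Its groups were separate, with a difference of 1.11 ± 0.138 (limma adjusted p = 0.000488). Cdca8, which encodes borealin, ran from 7.92 to 8.67 in vehicle and from 8.76 to 9.47 in DMPT arrays and rose by 1.00 ± 0.169. Aurkb, the kinase of the complex, read 12.07, 12.19, 11.51, 12.25 and 12.26 in the vehicle arrays and 11.97, 11.66, 10.57, 11.09 and 11.40 in the DMPT arrays. The DMPT values were mostly lower and spread over a wider range, but DMPT 1 and DMPT 2 lay above vehicle 3. The Aurkb difference of -0.72 ± 0.241 did not pass the test (95% confidence interval -1.24 to -0.19, limma adjusted p = 0.0824). Aurkb was called lower when DMPT 1 was left out (-0.87, adjusted p = 0.0354) or vehicle 3 was left out (-0.85, adjusted p = 0.0449), and with the replicate number as a block (-0.72, adjusted p = 0.0250). The vehicle mean of Aurkb, 12.1, was the highest of the measured mitosis genes, followed by Mki67 at 11.3. Vehicle 3 was the lowest vehicle array for Aurkb, and DMPT 3 the lowest DMPT array. Of the measured multiciliated cell markers read below, all were lowest in DMPT 3 among DMPT arrays. All but Deup1 were lowest in vehicle 3 among vehicle arrays. A link between Aurkb and these markers was not tested. A single probe set stood for Aurkb, and whether it reports the kinase transcript was not tested. Incenp, the scaffold of the chromosomal passenger complex, was not among the 35 genes and rose by 0.58 ± 0.119 (limma adjusted p = 0.00939). With RNA quality as a covariate, the Incenp difference was 0.47 and was not called (adjusted p = 0.0528).

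All 5 measured genes of spindle assembly rose, with a median difference of 0.98 and no overlap of the groups. Nusap1, a microtubule-bundling protein of the spindle, read 9.47, 9.95, 9.44, 8.15 and 8.95 in the vehicle arrays and 10.43, 10.38, 10.25, 10.71 and 10.45 in the DMPT arrays. Vehicle 4 lay well under the other vehicle arrays, and the difference was 1.25 ± 0.270 (limma adjusted p = 0.0125). Aurka, the centrosomal Aurora kinase, read 8.39, 8.84, 8.37, 8.24 and 8.65 in the vehicle arrays and 9.01, 8.89, 9.19, 9.03 and 9.01 in the DMPT arrays. Vehicle 2 came close to DMPT 2, and the difference of 0.53 ± 0.120 (limma adjusted p = 0.0165) was the smallest among the mitosis genes called. Kif11, the plus-end motor that pushes the spindle poles apart, ran from 7.21 to 7.95 in vehicle and from 8.52 to 9.03 in DMPT arrays and rose by 1.07 ± 0.151. Hmmr, a microtubule-associated protein of the spindle poles, rose by 0.98 ± 0.152, and Dlgap5, which stabilises microtubules near the chromosomes, by 0.76 ± 0.147.

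The 10 mitotic cyclins, kinases and their regulators all rose, with a median difference of 1.22. Ccna2, the cyclin A of S phase and mitotic entry, read 6.95, 7.93, 6.89, 6.19 and 7.33 in the vehicle arrays and 8.57, 8.51, 8.60, 8.50 and 8.44 in the DMPT arrays. The DMPT arrays were close to one another and above all vehicle arrays, and the difference of 1.47 ± 0.248 (limma adjusted p = 0.00327) was the largest of the role. The B-type cyclins Ccnb1 and Ccnb2 rose by 1.30 ± 0.150 and 1.37 ± 0.153, and Cdk1, the kinase they activate, by 0.99 ± 0.203. Cdca3, which promotes destruction of the mitosis inhibitor Wee1, rose by 1.42 ± 0.177, and Ccnf, an F-box cyclin, by 1.02 ± 0.127. Plk1, a kinase that acts at entry, at the kinetochore and at cytokinesis, ran from 8.38 to 9.07 in vehicle and from 9.66 to 9.89 in DMPT arrays, a difference of 1.14 ± 0.125 (limma adjusted p = 0.000231).

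Cdkn3, a phosphatase that acts on Cdk proteins, ran from 9.03 to 10.36 in vehicle and from 10.23 to 10.75 in DMPT arrays, overlapping through vehicle 2, and its difference was 1.12 ± 0.226. Without vehicle 2 the Cdkn3 difference was 1.36. Melk, a kinase abundant in dividing progenitor cells, read 8.38, 8.82, 7.94, 7.53 and 7.99 in the vehicle arrays and 8.94, 9.20, 8.90, 9.23 and 8.46 in the DMPT arrays. Vehicle 2 lay above DMPT 5, and the difference was 0.81 ± 0.225 (limma adjusted p = 0.0389). The Melk call was lost on leaving out any 1 array except vehicle 2 or DMPT 5, with values of 0.66 to 0.88 and adjusted p from 0.0506 to 0.0935. Pbk, a mitotic kinase, ran from 6.85 to 8.95 in vehicle and from 8.49 to 9.12 in DMPT arrays, with vehicle 2 inside the DMPT range, and its difference was 1.33 ± 0.338 (limma adjusted p = 0.0266). The Pbk call was lost on leaving out any 1 array except vehicle 2, DMPT 1 or DMPT 5, with values of 1.18 to 1.33 and adjusted p from 0.0542 to 0.0630. Without vehicle 2 the Pbk difference was 1.70.

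Of the 5 genes of the central spindle and cytokinesis, 4 rose, and the median difference was 1.23. Ect2, the exchange factor that activates RhoA at the cleavage furrow, read 8.43, 8.99, 8.04, 8.06 and 8.15 in the vehicle arrays and 9.93, 9.59, 9.84, 9.84 and 9.52 in the DMPT arrays. The groups were separate, with a difference of 1.41 ± 0.176 (limma adjusted p = 0.000509). Racgap1, which forms the centralspindlin complex with the motor Kif23 and recruits Ect2, read 10.70, 11.14, 10.52, 10.49 and 10.42 in the vehicle arrays and 10.98, 11.08, 11.00, 10.94 and 10.93 in the DMPT arrays. Vehicle 2 lay above every DMPT array, and the other 4 vehicle arrays lay below every DMPT array. The Racgap1 difference of 0.33 ± 0.131 did not pass the test (95% confidence interval 0.05 to 0.62, limma adjusted p = 0.134), and its second probe set gave 0.31 ± 0.242, also not called. Racgap1 was called higher without vehicle 2 (0.46, adjusted p = 0.00484), with array weights (0.43, adjusted p = 0.00805) and with RNA quality as a covariate (0.50, adjusted p = 0.0437). Kif23 rose by 1.27 ± 0.142. Prc1, which bundles the antiparallel microtubules of the central spindle, rose by 1.23 ± 0.134, and Kif20a, the motor that brings Plk1 and the passenger complex there, by 1.05 ± 0.134.

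Both genes of chromosome structure rose. Top2a, the topoisomerase that untangles sister chromatids, read 9.86, 9.95, 9.67, 8.65 and 9.84 in the vehicle arrays and 10.85, 10.71, 10.66, 10.86 and 10.49 in the DMPT arrays. Vehicle 4 stood apart below the other vehicle arrays, and the difference was 1.12 ± 0.218 (limma adjusted p = 0.00725). Mki67, which encodes the proliferation antigen Ki-67 that coats mitotic chromosomes, read 11.41, 11.46, 11.29, 11.06 and 11.20 in the vehicle arrays and 12.28, 12.17, 12.19, 12.17 and 12.00 in the DMPT arrays. Its groups were separate, with a difference of 0.88 ± 0.0994 (limma adjusted p = 0.000268).

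**Figure D3:**
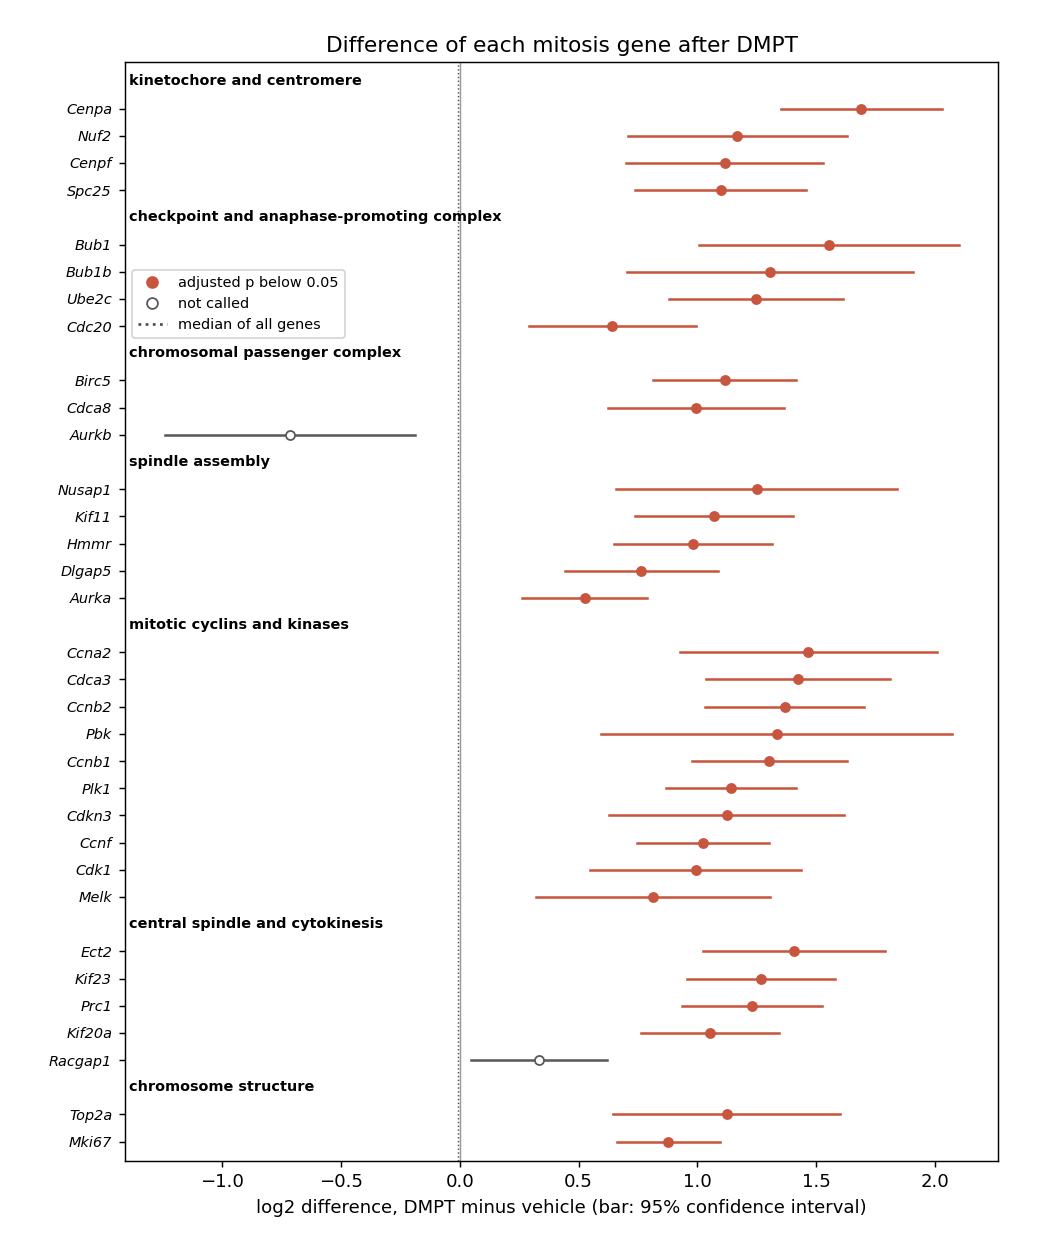
Each point is the log2 difference of 1 mitosis gene, DMPT minus vehicle, with its 95% confidence interval as a bar; filled points passed an adjusted p of 0.05 and open points did not, and the dotted line is the median of all genes. The open points are Aurkb at -0.72 and Racgap1 at 0.33, and the filled ones run from 0.53 for Aurka to 1.69 for Cenpa.

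Calls were then compared between probe sets and with arrays left out. Of the 44 probe sets, 40 were called higher, none lower and 4 were not called. Of all 31042 probe sets tested, 3451 were called in either direction. 8 genes had several probe sets, and in 6 of them every probe set was called higher, with Cdc20 and Racgap1 as the exceptions. Of the 31 genes called higher, 28 stayed called under each of 19 alternatives, namely 10 omissions of 1 array and 9 other settings, and the rest were Cdc20, Melk and Pbk. The p-values measure the spread between arrays, each from a separately numbered animal. Rats were housed 2 per cage, and the labels do not say which arrays share a cage.

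Other genes of mitosis were taken from lists of 176 names, of which 151 were measured. 65 of them rose (43.0%) and none fell, with a median difference of 0.35. Of all genes, 7.13% were called higher and 6.77% lower, the shares to set beside each list below. 5 were lower at an unadjusted p under 0.05 in limma: Cdc26, Stag2, Lin52, Stk10 and Ppp2r2a. Without vehicle 2 the number called higher was 77, and without DMPT 3 it was 50.

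Among other kinetochore and centromere genes, 19 of 29 rose (median 0.74). They included Cenpw, a histone-fold protein of the inner kinetochore (1.68 ± 0.133, limma adjusted p = 3.15e-05), and Knl1, the scaffold on which checkpoint proteins gather (1.33 ± 0.177). Of the other spindle and centrosome genes, 19 of 36 rose (median 0.61), among them Fam83d, which brings casein kinase to the spindle (1.53 ± 0.118), and Tacc3, which links microtubules of the spindle fibres (1.25 ± 0.133). The dimmest probe set of Tacc3 gave 0.29 and was not called (adjusted p = 0.263). Of the other cytokinesis genes, 3 of 12 rose (median 0.10). These were Kif20b (1.46 ± 0.161), the citron kinase gene Cit (1.27 ± 0.123) and Kif14 (1.00 ± 0.190), which is named after its values were seen. Anln, the anillin gene, was listed but had no probe set under that name.

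Of the 28 other checkpoint and anaphase-promoting complex genes, 9 rose (median 0.10). Mad2l1, the checkpoint protein Mad2 that binds Cdc20, rose by 1.38 ± 0.119 (limma adjusted p = 5.48e-05). Ttk, the Mps1 kinase that starts checkpoint signalling, rose by 1.57 ± 0.274, and Espl1, the separase that cuts cohesin, by 1.55 ± 0.170. The 14 subunits of the anaphase-promoting complex, set apart after their values were seen, had a median of 9.79e-05 and differences from -0.231 to 0.375. Of these 14, Cdc27 was the one called higher, at 0.38 ± 0.109 (limma adjusted p = 0.0478), and the call was lost on leaving out any 1 array except vehicle 2 or DMPT 5 (0.29 to 0.42 and adjusted p 0.0401 to 0.112 over all omissions). It was lost too with the replicate block (adjusted p = 0.0793), with trend and robust variance (adjusted p = 0.0608) and with RNA quality as a covariate (0.33, adjusted p = 0.171).

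Condensin, which compacts mitotic chromosomes, and cohesin, which holds sister chromatids together, were also set apart after their values were seen. 5 of 7 measured condensin genes rose (median 0.59). These were Ncaph (1.15 ± 0.233), Smc2 (1.06 ± 0.250), Ncapg2 (0.99 ± 0.238), Ncapd2 (0.59 ± 0.155) and Ncaph2 (0.39 ± 0.107), of which Ncaph alone was called in every omission of 1 array. Smc2 was lost without DMPT 3 (1.02, adjusted p = 0.0515), Ncapg2 without DMPT 3 or DMPT 4 (highest adjusted p 0.0561), Ncapd2 in all omissions but those of DMPT 1 and vehicle 2 (highest adjusted p 0.0771), and Ncaph2 in all but those of vehicle 2 and DMPT 4 (highest adjusted p 0.0966). The mean and the dimmest probe set of Ncaph2 gave 0.26 and 0.12 (adjusted p = 0.0862 and 0.597), and Ncapg2 was lost with RNA quality as a covariate (1.03, adjusted p = 0.0600). None of the 12 measured genes of cohesin and its regulators was called by limma, with a median of 0.00307. At an unadjusted p under 0.05, none was higher and Stag2 was lower (-0.39 ± 0.123, adjusted p = 0.0655).

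The regulators of mitotic entry rose in 10 of 27 cases (median 0.39). Cks1b, a small subunit of cyclin-dependent kinases, rose by 0.95 ± 0.119, and E2f8, an atypical E2F repressor, by 1.00 ± 0.179. The dimmest probe set of Cks1b gave 0.39 and was not called (adjusted p = 0.0772). The Foxm1 difference was 0.76 ± 0.211 (limma adjusted p = 0.0403), and its call was lost on leaving out any 1 array except vehicle 2 (0.65 to 0.98 and adjusted p 0.000292 to 0.0895 over all omissions). The mean of its probe sets gave 0.56 (adjusted p = 0.0553) and the dimmest 0.36 (adjusted p = 0.267). Mybl2, which encodes B-Myb, differed by 0.44 ± 0.117 (limma adjusted p = 0.0336). The Mybl2 call was lost in 7 omissions of 1 array, those other than vehicle 2, DMPT 2 and DMPT 4 (highest adjusted p 0.0820), with the replicate block (adjusted p = 0.0850) and with RNA quality as a covariate (0.45, adjusted p = 0.0889).

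Neighbouring steps of the cell cycle were read in the same fit, in which 7.13% of all genes were called higher and 6.77% lower. Of 42 measured DNA replication genes, 26 rose and none was lower at an unadjusted p under 0.05 in limma (median 0.60). Gmnn, the geminin gene whose product blocks a second round of replication, rose by 1.77 ± 0.180, and Mcm10, a replication initiation factor, by 1.56 ± 0.138. Of 18 G1 cyclins, kinases and inhibitors, 5 rose and 1 fell (median 0.27). Ccne1, a cyclin of S phase entry, rose by 0.69 ± 0.147 and the kinase inhibitor gene Cdkn2c by 0.48 ± 0.107, whose dimmest probe set gave 0.04 (adjusted p = 0.863). The others that rose, named after their values were seen, were Cdk6 (0.65 ± 0.153), Rbl1 (0.49 ± 0.121) and Ccnd1 (0.42 ± 0.0953). Cdk6 was not called without DMPT 3 (highest adjusted p 0.0501), nor Rbl1 without DMPT 3 or DMPT 4 (highest adjusted p 0.0626). Rbl1 was lost with the replicate block (adjusted p = 0.0657), and Cdk6 (0.54, adjusted p = 0.0953) and Ccnd1 (0.41, adjusted p = 0.0544) with RNA quality as a covariate. Cdkn1c, which encodes the inhibitor p57, fell by 0.59 ± 0.163 on the log2 scale (limma adjusted p = 0.0378). That call was lost in 7 of 10 omissions of 1 array, those other than vehicle 2, vehicle 3 and DMPT 3 (-0.71 to -0.46 and adjusted p 0.0167 to 0.0873 over all omissions). It was lost too with the replicate block (adjusted p = 0.0759), with RNA quality as a covariate (-0.45, adjusted p = 0.180) and after each rescaling of the arrays (-0.55 with adjusted p = 0.0583 and -0.56 with adjusted p = 0.0595).

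**Figure D4:**
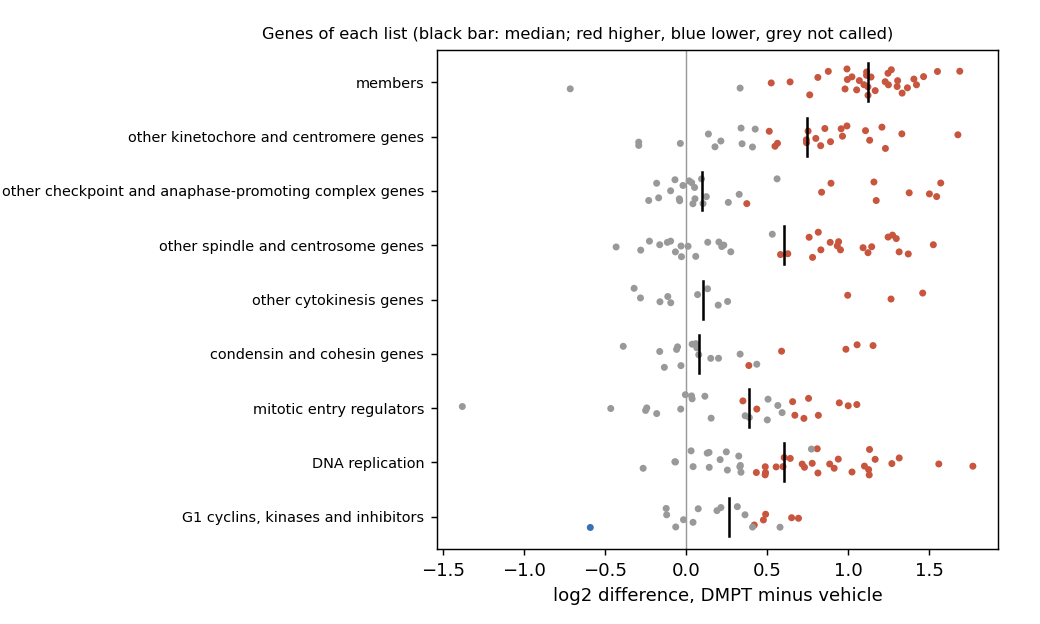
Each point is 1 measured gene, placed by its log2 difference, DMPT minus vehicle, in the 33 listed mitosis genes ("members"), the lists of other mitosis genes, DNA replication and G1 genes; red points were called higher, blue lower and grey not called, and the black bar is the median. The medians run from 1.12 for the 33 mitosis genes to 0.08 for condensin and cohesin, and the blue point is Cdkn1c at -0.59.

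Markers of the cells that laser capture could have collected were read beside these values, for 58 genes in 8 lists. The shares of all genes were 7.13% called higher and 6.77% called lower. The epithelial keratins were bright, with vehicle means of 14.22 for Krt15 and 13.64 for Krt18. 2 of 9 epithelial markers rose, namely Krt5 (0.60 ± 0.110) and Krt8 (0.44 ± 0.0881). 8 of 9 markers of multiciliated cells fell, with a median of -1.45, and their summed level on the log2 scale was 14.0 to 15.1 in vehicle and 12.6 to 14.1 in DMPT arrays. The exception was Rsph1, at -0.74 ± 0.247 (limma adjusted p = 0.0792), which was called without DMPT 1 and with the replicate block. Foxj1, the master regulator of cilia, fell by 0.88 ± 0.249 on the log2 scale (limma adjusted p = 0.0426), a call lost in the omissions of 1 array other than vehicle 3, DMPT 1 and DMPT 2 (highest adjusted p 0.0933), with array weights (-0.80, adjusted p = 0.0640) and with RNA quality as a covariate (-0.95, adjusted p = 0.0919).

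Macrophage and endothelial markers rose with the mitosis genes. 5 of 7 macrophage markers rose (median 0.61; summed level 11.8 to 12.0 in vehicle and 12.3 to 12.7 in DMPT arrays), namely Mrc1, Cd68, C1qb, C1qc and C1qa. The brightest were C1qc at 0.61 ± 0.106 and C1qa at 0.59 ± 0.173, and Mrc1 stood at 1.37 ± 0.380. The call of C1qa was lost in all omissions of 1 array but those of vehicle 2 and DMPT 1 (highest adjusted p 0.122), and that of Mrc1 in all but those of vehicle 3, vehicle 4 and DMPT 4 (highest adjusted p 0.0790). With RNA quality as a covariate Mrc1 (adjusted p = 0.109) and C1qb (0.62, adjusted p = 0.0680) were not called, nor was Mrc1 with the replicate block (adjusted p = 0.0950). 6 of 8 endothelial markers rose (median 1.17; summed level 9.31 to 10.6 and 10.6 to 11.8), with Kdr at 2.06 ± 0.382 and Egfl7 at 1.08 ± 0.302. Of those that rose, Esam and Pecam1 had vehicle means of 6.00 and 6.35, under the lower quartile of every array (6.38 to 6.51). The vehicle means of Tie1, Emcn, Kdr and Egfl7 were 6.57, 6.76, 6.92 and 7.56. The dimmest probe set of Kdr gave 0.14 (adjusted p = 0.540), and the call of Egfl7 was lost in all omissions but those of vehicle 3 and DMPT 2 (highest adjusted p 0.0916), with array weights (0.93, adjusted p = 0.0886), with RNA quality as a covariate (1.23, adjusted p = 0.0669) and with its dimmest probe set (0.42, adjusted p = 0.122).

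No lymphocyte or fibroblast marker was called, with medians of -0.08 over 8 and -0.10 over 7 genes, and none was lower at an unadjusted p under 0.05 in limma. Their summed levels were 11.5 to 11.7 in vehicle and 11.0 to 11.4 in DMPT arrays for lymphocytes, and 13.9 to 14.6 and 13.6 to 14.7 for fibroblasts. 1 of 6 markers of olfactory neurons, Adcy3, was higher (0.52 ± 0.148), a call lost in all omissions but that of vehicle 2 (highest adjusted p 0.0925), with the replicate block (adjusted p = 0.0673) and with RNA quality as a covariate (0.57, adjusted p = 0.0817), and none of 4 markers of olfactory globose basal cells was called. Their summed levels were 11.0 to 11.6 and 11.3 to 11.5 for the neurons, and 9.13 to 9.45 and 9.14 to 9.53 for the basal cells. Neurod1 had a vehicle mean of 3.11 and the T cell gene Cd3e one of 5.88, under the lower quartile of every array (6.38 to 6.51). Other T cell genes lay above it, with vehicle means of 6.62 for Cd3d, 7.50 for Cd2 and 10.59 for Cd3g. The brightest lymphocyte markers were Cd3g, with a difference of -0.39 ± 0.183, and Ptprc, with a vehicle mean of 9.77 and a difference of -0.18 ± 0.208. The part of these cell types in the mitosis result was not tested.

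The arrays were alike in scale, with medians of 8.21 to 8.35 and correlations between arrays of 0.959 to 0.992. RNA quality was read from the 3′ minus 5′ log2 value of the array's GAPDH and actin controls, in which a larger value means more truncated copies. It was 1.28 ± 0.134 (SD, n = 5) in vehicle and 1.10 ± 0.187 (SD, n = 5) in DMPT arrays. It was highest in vehicle 2, at 1.50, and the difference of -0.181 did not pass a two-sided exact permutation test (p = 0.143, the smallest possible p being 0.00794). With this ratio as a covariate the median difference of the mitosis genes was 1.29.

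Promoter windows were held for 28 of the 33 measured genes, the others being Ube2c, Aurkb, Ccna2, Pbk and Racgap1. Against all 27457 genes with a window, the first listed per gene, 23 of the 28 held a CCAAT box (82.1%, against 37.7% of all) and 20 held a CHR (71.4%, against 19.5%). 18 held both (64.3%, against 7.83%). The E2F core was searched on either strand as the letters GCGCCAA, as its variant GCGCGAA, as the variant GCGGCAA and as the variant GCGGGAA. It was held by 6 windows (21.4%, against 10.0%). The shares of all genes include genes that were not measured. Of the 11700 measured genes with a window, 4363 held a CCAAT box, 1636 a CHR, 674 both and 1850 an E2F core. 3 pairs of matches to different motifs overlapped by some letters, in Cdca8, Mki67 and Ect2. The windows of Bub1, Aurka and Melk held none of these motifs (10.7%, against 45.1% of all), which says only that these letters are not in those 300 bases.

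Of 56 CCAAT matches, 35 began between -150 and -1, and of 27 CHR matches, 19 began at -100 or later. No positions over all windows are given beside these counts. 18 genes held 2 or more CCAAT boxes, and no share over all windows is given beside this count either. Within the list, the median difference was 1.12 in the genes whose windows held a CCAAT box and a CHR and 1.12 in those that lacked the pair. Among the 11700 measured genes with a window, 7.18% were called higher, and of the 674 that held both elements 13.4% were. With only the genes of the first mitosis list left out, 72 of 656 such genes were called higher (11.0%). The other mitosis genes and the DNA replication genes were not removed from this count. A match is a description of letters and not of binding.

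**Figure D5:**
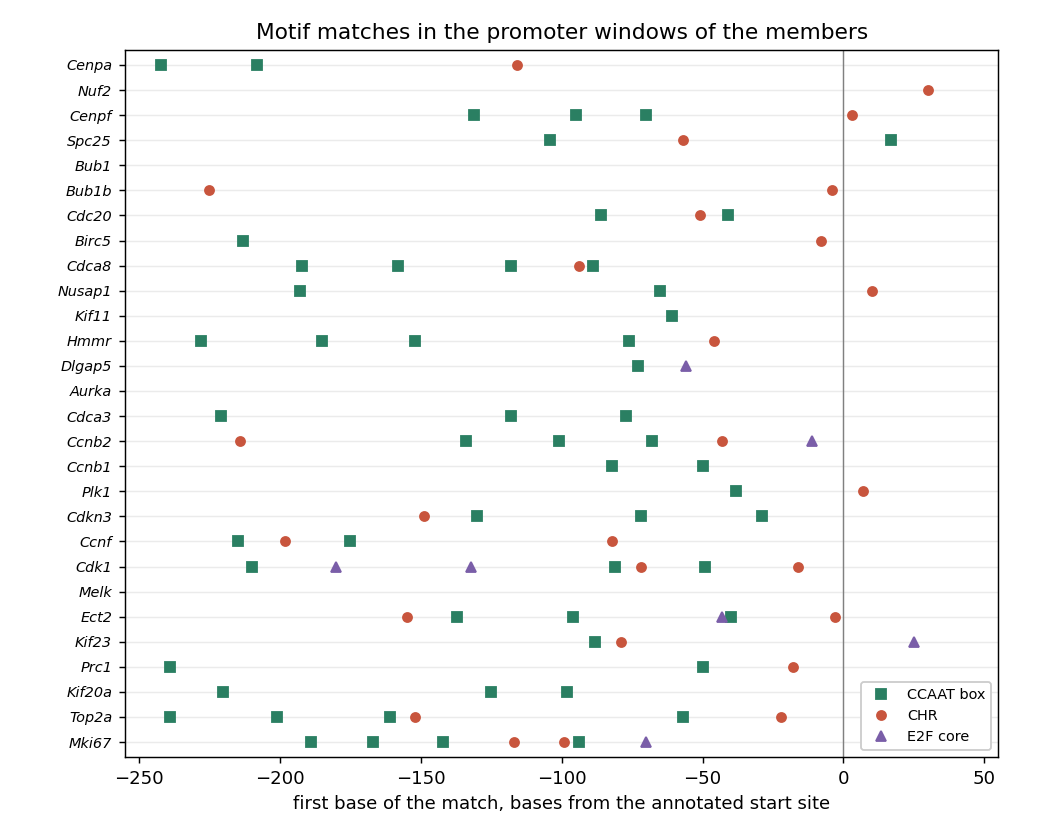
Each symbol marks the first base of a motif match, in bases from the annotated start site, in the promoter windows of 28 mitosis genes; squares are CCAAT boxes, circles CHR elements and triangles E2F cores. Of 27 CHR matches, 19 lie at -100 or later, and the rows of Bub1, Aurka and Melk are empty.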

How the data were processed

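RNA of 10 laser-captured samples of nasal epithelium, from 5 DMPT and 5 vehicle rats, was measured on Affymetrix arrays. The authors deposited log2 values, summarised by RMA per the submitters' processing notes, for 31099 probe sets, by a version not given in the sources used here. RMA sets all arrays to 1 distribution, so differences are relative to the other probe sets of an array. The authors compared the groups with ORIOGEN, per the series' design text, which was not run here. 57 control probe sets were left out, and the other 31042 were tested on the deposited log2 values with lmFit and eBayes in limma 3.58.1 (R 4.3.3), with Benjamini-Hochberg adjustment over all of them. 20826 probe sets had 1 gene symbol in the platform annotation, 436 had several and 9780 none. The brightest probe set of a gene over the 10 arrays stood for it, giving 14217 genes. On simulated data with known differences the fit was checked before use.

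The members and lists were chosen with earlier results of these data known, so a count over a list describes it and is no independent test. All listed genes are named. In each role, the genes with the largest and smallest difference and those not called are given array by array. Of other mitosis lists, the 2 called genes with the smallest p in each direction are named with Foxm1, Mybl2, Mad2l1, Ttk, Incenp and Anln, and of marker lists the 2 brightest. Genes named otherwise were chosen after their values were seen. Promoters are RefSeq's GRCr8 windows, matched by symbol. Alternatives were the omission of each array, the replicate number as a block, rescaling, a filter on dim probe sets, other probe sets per gene, other variance models, array weights and an RNA quality covariate. Signal of arrays gives no counting depth, so their number limits the precision.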

Additional observations from a re-analysis of the deposited data

Results flagged for a closer look

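In each of 170 sets of 5 arrays (the genes with values in the text, in each group), the array farthest from the others was compared with Dixon's critical value of 0.71 for the gap over the range, which chance passes in about 5% of sets. 7 of the sets that passed belong to the mitosis genes. In vehicle arrays, Aurkb was 11.5 in vehicle 3 (others 12.1 to 12.3), Cdkn3 was 10.4 in vehicle 2 (others 9.03 to 9.37), Pbk was 8.95 in vehicle 2 (others 6.85 to 7.43) and Top2a was 8.65 in vehicle 4 (others 9.67 to 9.95). In DMPT arrays, Ccnf was 8.21 in DMPT 3 (others 7.73 to 7.82), Kif20a was 10.1 in DMPT 5 (others 10.4 to 10.5) and Kif23 was 10.5 in DMPT 5 (others 10.8 to 10.9).

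Among other mitosis genes, Espl1 was 8.78 in DMPT 5 (others 9.15 to 9.26), Kif20b was 7.31 in vehicle 4 (others 7.91 to 8.04), Ncaph was 10.1 in DMPT 4 (others 9.36 to 9.49), Incenp was 10.3 in DMPT 1 (others 9.92 to 10.0) and Cdc27 was 8.38 in vehicle 2 (others 8.75 to 8.85). Among markers, Kit was 7.43 in vehicle 2 (others 8.34 to 8.67), Krt5 was 12.9 in vehicle 1 (others 12.4 to 12.6) and C1qb was 8.03 in vehicle 2 (others 8.47 to 8.53). Vehicle 2 was the array that stood apart in 5 of these 15 sets, above the others for Cdkn3 and Pbk and below them for Kit, Cdc27 and C1qb.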

How the results depend on the processing

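The number of mitosis genes called higher ran from 28 to 32 over the omissions of 1 array and was 31 or 32 under the 9 other settings. Their median difference ran from 1.03 (without vehicle 4) to 1.24 (without vehicle 2), and the highest value, 1.29, came with the RNA quality covariate. The number called lower ran from 0 to 1 over the omissions: 1 without DMPT 1 and without vehicle 3, and 1 with the replicate block, each time Aurkb. Of the other mitosis genes, 50 to 77 were called higher over the omissions. Of these genes 0 to 1 were called lower over the omissions: Ppp2r2a without vehicle 3 (-1.71), Stag2 without vehicle 4 (-0.47) and Stk10 without vehicle 5 (-0.58). In other settings 1 was called lower: Ppp2r2a with the replicate block (-1.38), Nipbl with the mean (-0.22) or the dimmest (-0.46) probe set of each gene, and Stag2 with trend and robust variance (-0.39) or array weights (-0.33). The cause was not tested. Numbers 1 to 5 recur in both groups, but same-numbered arrays correlated at -0.0672 to 0.234, with 2 of 5 pairs over 0.1 and 5 of 10 arrays best with their own number. The labels do not say what a shared number stands for. With the replicate block 31 mitosis genes were higher and 1 lower, and 65 others higher and 1 lower.

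22 gene differences changed sign, in 7 markers that were not called. Krt18 was -0.00252 after repeated quantile normalization, and Ptprc 0.17 and Col1a1 0.029 with the dimmest probe set. Col1a2 ran from -0.19 to 0.20 over the omissions and was -0.043 with the mean probe set, -0.12 with the dimmest, -0.16 with array weights and -0.14 with the RNA quality covariate. Gng13 ran from -0.14 to 0.055 and was 0.096 with array weights and 0.015 with the covariate. Kit ran from -0.000882 to 0.31 and was -0.0256 with the covariate, and Lgr5 ran from -0.42 to 0.17 and was 0.083 with it. Of 50 other named genes, 30 changed their call or sign in at least 1 setting. With 5 arrays a group, differences near 0.5 often lay close to the threshold, yet Aurka (0.53) and Krt8 (0.44) stayed called in every omission. Calls of some larger differences, such as Pbk (1.33) and Mrc1 (1.37), were lost in several omissions.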
